A study of Rattus norvegicus and Homo sapiens with 12 samples.

Results

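The IL-20 family of cytokines was examined in DU145 prostate cancer cells before and after selection by mesenchymal stem cells (MSCs). The 6 genes described were the ligands IL24, IL19 and IL20 and the receptor chains IL20RA, IL20RB and IL22RA1, out of 60107 genes listed for DU145, and each was found by its Ensembl identifier. They were chosen by the F2 against F0 difference of IL24 in these same 6 libraries, which was already known, so the values of the 6 genes in F2 and F0 are given as a description, with no test. The gene lists used below were also chosen with earlier results of these data known. Their shares of called genes are a description beside all genes tested, and were not matched for level of expression. The question put to the data was whether the population with more IL24 mRNA also carries mRNA for the receptor chains of IL24.

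DU145 is a human prostate cancer cell line. F0 DU145 is the parental population, and F2 DU145 is the population that grew out after repeated culture in conditioned media (CM) of human MSCs, 2 rounds of 72 h according to the sample labels and 3 according to the text of the series. Both were grown in DMEM with serum, and RNA was taken from 3 samples of each and profiled by QuantSeq, in which reads start close to the poly(A) tail and each transcript gives about the same number of reads whatever its length. The sources do not say whether the 3 F2 samples came from separate selections, so SDs and p-values describe the spread between samples, which may be technical.

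IL19, IL20 and IL24 belong to the IL-10 family and signal to epithelial cells through pairs of receptor chains. The type I receptor is IL20RA with IL20RB and binds IL19, IL20 and IL24, whereas the type II receptor is IL22RA1 with IL20RB and binds IL20 and IL24. Both pairs activate JAK kinases and chiefly STAT3. IL24, first named melanoma differentiation associated gene 7, is also known for an intracellular action on endoplasmic reticulum (ER) stress and apoptosis when it is overproduced in cancer cells.

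The IL24 gene (ENSG00000162892) lies on the plus strand at chr1:206897443-206904139 (GRCh38), in a cluster with IL10, IL19 and IL20. Since QuantSeq counts come from transcript ends, the last 30 bases of the 3′ UTR of annotated transcripts (GENCODE release 29) are shown for IL24 and for the 2 receptor chains of the type II receptor. Capitals mark the poly(A) signal AATAAA, searched together with ATTAAA on the transcribed strand.
IL24-204, chr1:206903451-206903480 (+): AATAAActgtggtgctttttttggcctgtc
IL24-201, chr1:206903836-206903865 (+): tccctgctAATAAAagacaacataactcaa
IL24-202 and IL24-207, chr1:206904110-206904139 (+): tggccacccaggaactcctgactgctttcc
IL22RA1-201, chr1:24119771-24119800 (-): tgggcagtgcccAATAAAcggtagctattt
IL20RB-201, chr3:137011056-137011085 (+): gggccaccctggccaaaagcggtctttaaa
The protein-coding transcripts of IL24 with a 3′ UTR thus have 3 annotated ends, of which the first and the middle one carry the signal. Transcripts of other types were not examined. One of the motifs is in the last 30 bases of 53.3% of 58265 protein-coding transcripts with a 3′ UTR of at least 30 bases. The counts are summed per gene and do not show which end was used. In the last 500 bases of each of the 6 genes, 0 of 470 stretches of 31 bases occur in transcripts of another gene, so no near-identical copy was found there.

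IL24 was at a modest level in F0 and among the better expressed genes in F2. The 3 F0 libraries held 143, 153 and 146 counts, and the 3 F2 libraries 742, 665 and 715. On the scale of counts scaled to a common library total (CPM) after TMM normalization these were 8.43, 9.25 and 8.63 CPM in F0 and 47.4, 43.1 and 45.5 CPM in F2. The groups were apart, and the replicates of each stayed close together. The mean thus went from 8.77 ± 0.429 to 45.3 ± 2.13 CPM (here and below ± is the SD over the n = 3 libraries of a population), with a ratio of 5.17 and a fitted log2 fold change of 2.37 ± 0.085 (standard error, SE). All F2 libraries lay above all F0 libraries, as they did for 16.9% of the genes tested. In F0, 61.5% of the genes with a count lay below IL24, and in F2, 82.6%. Among the 14316 genes that passed the filter on low counts, 3 had a larger fitted log2 fold change, 1 of them with a mean of at least 5 CPM. In bulk RNA, a larger share of cells that express a gene and more RNA per cell cannot be told apart.

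The other ligands of the family were at or near 0. IL19 (ENSG00000142224, chr1:206798870-206842981, plus strand) had 0 counts in all 6 libraries, which in F0 allows at most 0.0732 CPM and in F2 at most 0.0788 CPM (95% exact Poisson limits on the summed counts, for counting error only). IL20 (ENSG00000162891, chr1:206865354-206869223, plus strand) had 2, 0 and 0 counts in F0 and 1, 0 and 0 in F2. Both were therefore under the floor of 3 counts per library, which corresponds to 0.177 to 0.195 CPM, in either population. Annotated ends with a poly(A) signal are shown for both, because the absence of counts rests on such ends; the end of another IL20 transcript (IL20-201) holds neither motif:
IL19-202, chr1:206842952-206842981 (+): tctgAATAAAttccatattttacctatgaa
IL20-202, chr1:206869194-206869223 (+): ttctacaAATAAAgttttctttgcataaca
IL24 was thus the one ligand of the 3 with counts above the floor.

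**Figure D1:**
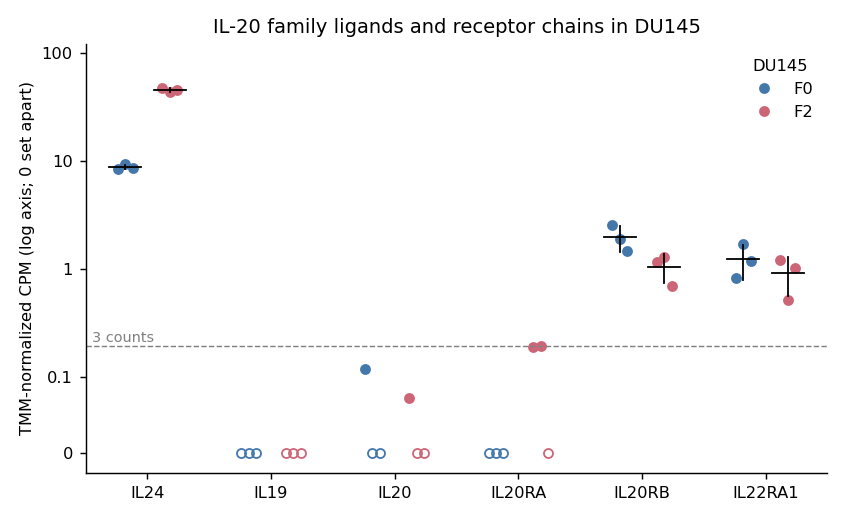
TMM-normalized CPM (log axis, with 0 set apart at the bottom as open circles) of the 6 family genes in 3 F0 (blue) and 3 F2 (red) libraries of DU145; bars are mean ± SD where no library is at 0, and the dashed line is the level of 3 counts. IL24 lies between 8.43 and 9.25 CPM in F0 and between 43.1 and 47.4 CPM in F2, while IL20RB and IL22RA1 stay between 0.519 and 2.54 CPM and IL19, IL20 and IL20RA at or under the dashed line.

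The receptor chains were expressed at low levels or not detectably. IL20RB (ENSG00000174564, chr3:136946230-137011085, plus strand), the chain shared by the type I and type II receptors, had 43, 31 and 25 counts in F0 and 18, 20 and 11 in F2. These were 2.54, 1.88 and 1.48 CPM in F0 and 1.15, 1.30 and 0.700 CPM in F2. Every F2 library lay below every F0 library, as was the case for 17.1% of the genes tested. The F0 mean of 1.96 ± 0.535 CPM stood against 1.05 ± 0.311 CPM in F2, with a ratio of 0.534 and a fitted log2 fold change of -0.90 (SE 0.31). Among genes with a count, IL20RB stood above 48.6% in F0 and 43.7% in F2, near the middle of the detected range.

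IL22RA1 (ENSG00000142677, chr1:24119771-24143121, minus strand), the second chain of the type II receptor and a chain of the IL-22 receptor, had 14, 28 and 20 counts in F0 and 19, 8 and 16 in F2. In CPM these were 0.826, 1.69 and 1.18 in F0 and 1.21, 0.519 and 1.02 in F2. The groups overlapped. The means were 1.23 ± 0.436 CPM and 0.917 ± 0.358 CPM, and the log2 fold change of -0.42 had an SE of 0.37. From the summed counts, the exact Poisson interval was 0.943 to 1.58 CPM in F0 and 0.665 to 1.24 CPM in F2. IL22RA1 mRNA was thus present in both populations. Its log2 fold change was close to its SE, so no difference between F0 and F2 is read from it.

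IL20RA (ENSG00000016402, chr6:136999971-137045180, minus strand), the chain particular to the type I receptor, had 0 counts in each F0 library and 3, 3 and 0 counts in F2. Summed over the libraries, these counts allow at most 0.0732 CPM in F0 and between 0.0471 and 0.279 CPM in F2. Both populations were at or under the floor, and no fold is given. The end of its main transcripts carries a poly(A) signal:
IL20RA-201, chr6:136999971-137000000 (-): agcaaaagaaaAATAAAgtgattgatgata
Counts above the floor in both populations were thus found for IL20RB and IL22RA1, the chains of the type II receptor, and not for IL20RA. Of the 6 family genes, 3 passed the filter on low counts: IL24, IL20RB and IL22RA1.

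In order of level, IL24 came first in both populations, followed by IL20RB and IL22RA1. QuantSeq counts transcript ends, so levels of different genes can be set side by side without division by length, apart from differences in priming between genes. The annotated end of IL20RB shown above holds neither poly(A) motif, and whether another end is used was not tested. The levels of IL20RB and IL22RA1 were not separated by their spread: their count ratio within a library was 3.07, 1.11 and 1.25 in F0 and 0.947, 2.5 and 0.688 in F2. The ratio of IL24 counts to IL20RB counts was 3.33, 4.94 and 5.84 in F0 and 41.2, 33.2 and 65 in F2. That of IL24 to IL22RA1 was 10.2, 5.46 and 7.3 in F0 and 39.1, 83.1 and 44.7 in F2. In each F2 library the ligand therefore outnumbered either receptor chain by more than in any F0 library. That description follows from the F2 over F0 ratios of the means, 5.17 for IL24, 0.534 for IL20RB and 0.743 for IL22RA1. The groups of IL22RA1 overlapped.

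Reads of IL20RB could in part belong to genes that overlap it. NCK1, an adaptor gene on the same strand whose end overlaps the start of IL20RB, was at 19.4 ± 2.89 and 19.1 ± 1.06 CPM in F0 and F2 (log2 fold change -0.019, 95% interval -0.24 to 0.20, adjusted p = 0.931). IL20RB-AS1, an antisense gene within IL20RB, had 0 counts in all libraries. No gene of the annotation overlaps IL24, IL20RA or IL22RA1.

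Among the remaining genes of the IL-10 family, IL10RB, the widely expressed second chain of the IL-10, IL-22 and interferon lambda receptors, had the highest level of the 7 receptor chains examined. Its 6 libraries held 650, 698 and 702 counts in F0 and 486, 488 and 498 in F2. It fell from 40.7 ± 2.07 to 31.5 ± 0.375 CPM, by 0.37 on the log2 scale (SE 0.069, edgeR adjusted p = 7.8e-04). Within a library, IL10RB had 15.1 to 28.1 counts for each count of IL20RB in F0 and 24.4 to 45.3 in F2. IL10RB is not a chain of the IL24 receptors, whose common chain is IL20RB.

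IFNLR1, the specific chain of the interferon lambda (IL-28) receptor, had 45, 56 and 41 counts in F0 and 39, 43 and 46 in F2. Its groups overlapped at 2.82 ± 0.504 and 2.74 ± 0.224 CPM, and the interval of the log2 fold change was -0.49 to 0.40 (adjusted p = 0.921). IL10RA, the specific chain of the IL-10 receptor, was at 0.815 ± 0.355 and 1.07 ± 0.163 CPM (log2 fold change 0.39, interval -0.40 to 1.18, adjusted p = 0.527). IL22RA2, a soluble decoy receptor for IL-22, had 0 counts in all libraries.

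Of the 10 other family genes, 3 passed the filter on low counts and 1 of these, IL10RB, passed the threshold of an adjusted p under 0.05, with a median log2 fold change of -0.043. Over all 14316 genes tested, 18.2% passed (9.49% higher and 8.67% lower in F2), with a median of -0.0025. The ligands IL10, IL22, IL26, IFNL2 and IFNL3 had 0 counts in all 6 libraries, and IFNL1 had 1, 1 and 0 in F0 and 0 in F2. The IL-10 family ligands other than IL24 were thus at or under the floor.

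**Figure D2:**
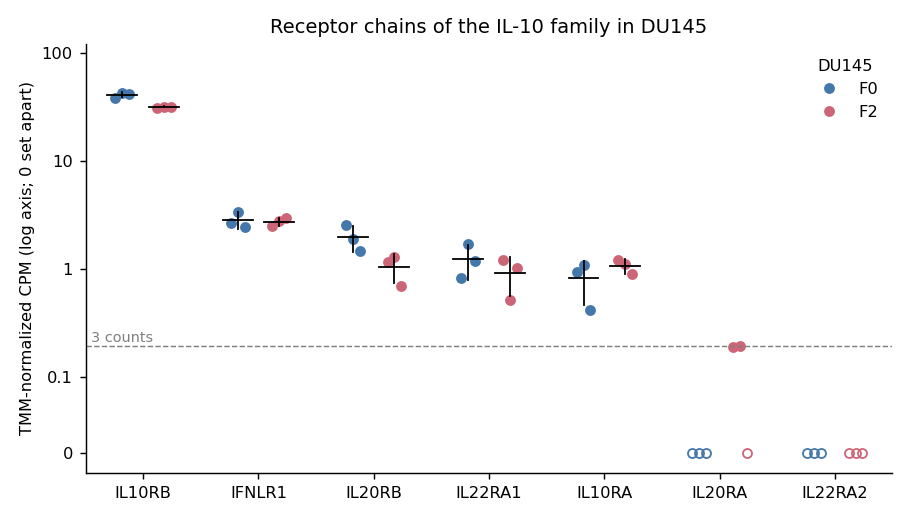
TMM-normalized CPM (log axis, 0 set apart as open circles) of 7 receptor chains of the IL-10 family in 3 F0 (blue) and 3 F2 (red) libraries of DU145, with mean ± SD where no library is at 0 and the level of 3 counts as a dashed line. IL10RB has means of 40.7 and 31.5 CPM in F0 and F2, IFNLR1, IL20RB, IL22RA1 and IL10RA lie near 1 to 3 CPM, and IL20RA and IL22RA2 are at or near 0.

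Set among 53 cytokine ligands of other families and its own, IL24 moved from the 8th highest mean in F0 to the 2nd in F2. Of these ligands 27 had no count in any library, as had 34681 of all 60107 genes listed, and 10 reached a mean of 1 CPM. CSF1, the macrophage growth factor, was highest in both populations, at 84.7 ± 2.94 and 75.5 ± 1.09 CPM. In F2, IL24 at 45.3 CPM lay above CXCL8, IL11, CLCF1, LIF, IL18 and IL32, all of which had exceeded it in F0.

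In the list of 44 other cytokine ligands, 10 were tested, of which 2 rose and 2 fell (40%, against 18.2% of all genes; median log2 fold change 0.0099). IL11, an IL-6 type cytokine that signals through STAT3, rose from 22.1 ± 2.09 to 32.7 ± 2.74 CPM (log2 fold change 0.57, SE 0.088, adjusted p = 1.3e-04). The neutrophil chemoattractant CXCL8 rose from 27.8 ± 3.04 to 35.5 ± 3.16 CPM (log2 fold change 0.35, adjusted p = 0.0075). IL32 fell from 25.3 ± 2.94 to 19.1 ± 0.677 CPM (log2 fold change -0.40, adjusted p = 0.0048), and CSF1 fell by 0.17 on the log2 scale (adjusted p = 0.033). The call of CXCL8 was lost without F2 replicate 3 (adjusted p = 0.055), and that of CSF1 in 7 of 13 alternatives (adjusted p = 0.0502 to 0.173).

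**Figure D3:**
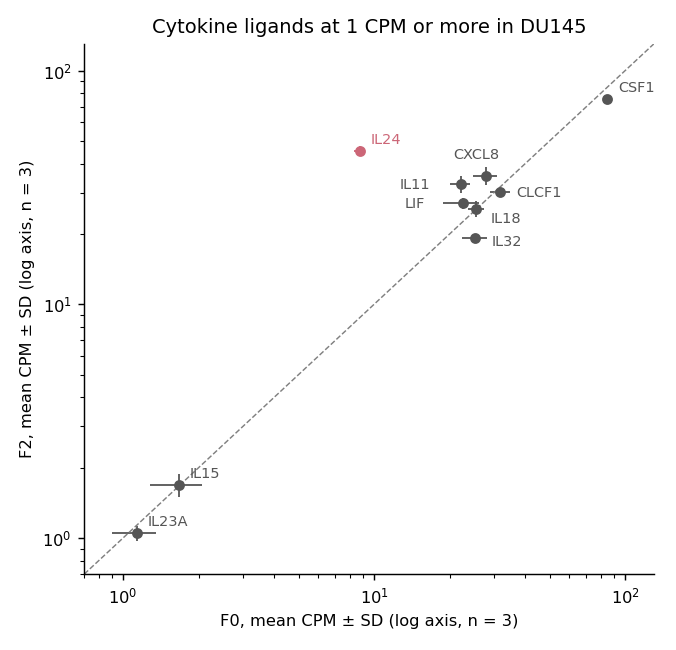
Mean CPM in F2 against F0 (both log axes; bars are SD, n = 3 each) of the 10 cytokine ligands with a mean of at least 1 CPM in DU145; the dashed line marks equal levels. IL24 (red) lies farthest from the line, with means of 8.77 and 45.3 CPM in F0 and F2, while CSF1 is highest on both axes.

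The kinases that sit on the receptor chains were present in both populations. JAK1, which associates with IL20RA and IL22RA1, was at 61.8 ± 0.924 and 60.6 ± 2.02 CPM in F0 and F2 (log2 fold change -0.027, 95% interval -0.15 to 0.090, adjusted p = 0.788). TYK2 was at 67.2 ± 3.78 and 72.4 ± 2.71 CPM (log2 fold change 0.11, interval -0.014 to 0.23, adjusted p = 0.221). JAK2 was at 6.48 and 7.97 CPM (adjusted p = 0.153) and JAK3 at 1.73 and 2.23 CPM (adjusted p = 0.414).

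STAT3, the main transcription factor downstream of the IL24 receptors, was the most abundant STAT mRNA and was lower in F2. It had 4599, 4447 and 4548 counts in F0 and 3648, 3530 and 3600 in F2, and fell from 269.6 ± 1.35 to 230.4 ± 2.23 CPM (log2 fold change -0.23, SE 0.042, adjusted p = 7.6e-04). STAT6, which serves IL-4 and IL-13, rose from 48.4 ± 2.40 to 63.5 ± 1.89 CPM (log2 fold change 0.39, SE 0.060, adjusted p = 1.2e-04).

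STAT4, at 3.52 and 2.03 CPM in F0 and F2, was also lower (log2 fold change -0.79, adjusted p = 0.026). That call was lost with DESeq2 and without F0 replicate 2, F0 replicate 3, F2 replicate 1 or F2 replicate 2 (adjusted p = 0.0522 to 0.149 in these 5 alternatives, log2 fold change -0.82 to -0.64). STAT5A differed by -0.50 on the log2 scale (adjusted p = 0.058), STAT2 by 0.27 (adjusted p = 0.0996) and STAT5B by 0.032 (adjusted p = 0.865). In all, 1 of the 11 JAK and STAT genes rose and 3 fell (36.4% called, against 18.2% of all genes; median log2 fold change 0.032). mRNA levels do not report phosphorylation of these proteins.

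Among 16 feedback regulators of JAK and STAT signaling, 14 were tested, 2 rose and 3 fell (35.7% called, against 18.2% of all genes; median log2 fold change -0.070). SOCS3, the inhibitor induced by STAT3, rose from 16.6 ± 1.21 to 22.1 ± 1.52 CPM (log2 fold change 0.41, SE 0.093, adjusted p = 0.0039). Its counts were 269, 298 and 271 in F0 and 352, 361 and 321 in F2, with no overlap. SOCS2, an inhibitor best known from growth hormone signaling, fell from 30.3 ± 2.14 to 20.5 ± 3.14 CPM (log2 fold change -0.57, SE 0.098, adjusted p = 3.8e-04).

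SOCS6 fell by 0.38 on the log2 scale (adjusted p = 0.014), PIAS4 fell by 0.24 (adjusted p = 0.033) and PIAS1, like PIAS4 a SUMO ligase that restrains STAT proteins, rose by 0.24 (adjusted p = 0.017). These calls depended on single libraries or settings: SOCS6 was lost without F0 replicate 1, F0 replicate 3 or F2 replicate 3 (adjusted p up to 0.0629), PIAS4 with DESeq2 and without F0 replicate 1, F2 replicate 1 or F2 replicate 2 (adjusted p = 0.0583 to 0.158), and PIAS1 with library size alone and without F0 replicate 1, F2 replicate 1 or F2 replicate 3 (adjusted p = 0.0545 to 0.112). The list held 2 calls without F0 replicate 1 and 3 without F2 replicate 1, against 5 with all libraries. With library size alone in place of TMM, 1 was higher and 5 lower.

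Of 20 textbook targets of STAT3, all were tested, 6 rose and 3 fell (45% called, against 18.2% of all genes; median log2 fold change -0.015). The largest changes among them were decreases of the transcription factor genes CEBPD, from 84.5 ± 4.87 to 54.1 ± 2.91 CPM (log2 fold change -0.64, SE 0.061, adjusted p = 3.1e-07), and CEBPB, from 94.5 ± 5.0 to 68.3 ± 3.96 CPM (log2 fold change -0.47, adjusted p = 1.1e-05). Besides SOCS3, the kinase gene PIM1 rose by 0.38 on the log2 scale (adjusted p = 0.0021) and the angiogenic factor VEGFA rose from 79.5 ± 4.37 to 102.7 ± 4.96 CPM (log2 fold change 0.37, adjusted p = 1.1e-04).

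The rises of MCL1 (log2 fold change 0.19, adjusted p = 0.0040), CCND1 (0.18, adjusted p = 0.0050) and BCL2L1 (0.24, adjusted p = 0.021), a survival, a cell cycle and again a survival gene, were smaller. With library size alone all 3 calls were lost (adjusted p = 0.0951, 0.124 and 0.132), and the list then had 3 higher and 8 lower. The call of BCL2L1 was also lost without F0 replicate 2 or F2 replicate 2 (adjusted p = 0.111 and 0.108). SOCS3 and STAT3 stand in this list and in the lists above, and the members moved in both directions.

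Genes by which keratinocytes and other epithelia answer IL-20 family cytokines were mostly without a count. Of 18 listed, 11 had 0 counts in all libraries, among them the antimicrobial and alarmin genes S100A7, S100A8 and DEFB4A and the keratins KRT6A, KRT6B and KRT17. Over all 60107 genes listed for DU145, 34681 had no count in any library, a similar share, so the lack of counts is not particular to this list. KRT10 and IVL passed the filter on low counts, and of these 0 passed the threshold with edgeR and 0 had an unadjusted p under 0.05. Without that filter 7 were tested, and 0 passed with edgeR or with DESeq2. KRT10, a keratin that IL-20 family cytokines are known to lower in skin, was at 169.7 ± 10.8 and 169.2 ± 13.2 CPM (log2 fold change -0.0036, adjusted p = 0.975). PI3, an elastase inhibitor, had 13, 9 and 10 counts in F0 and 3, 6 and 3 in F2, and LCN2, an iron-binding antimicrobial protein, 2, 1 and 1 in F0 and 7, 2 and 6 in F2, both below the filter on low counts.

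In a list of 17 genes of the ER stress and apoptosis arm ascribed to IL24, 16 were tested, 2 rose and 2 fell (25% called, near the 18.2% of all genes; median log2 fold change 0.047). PPP1R15A, the phosphatase subunit that ends the stress block on translation, rose from 30.8 ± 0.782 to 46.7 ± 3.45 CPM (log2 fold change 0.60, SE 0.071, adjusted p = 5.2e-06). Its counts were 509, 522 and 519 in F0 and 724, 777 and 684 in F2, so that the groups did not overlap. GADD45B, a stress gene, fell from 184.3 ± 6.80 to 151.3 ± 9.38 CPM (log2 fold change -0.28, adjusted p = 6.4e-04).

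HSPA5, the main ER chaperone, fell by 0.15 on the log2 scale (adjusted p = 0.022). With library size alone, the list had 1 gene higher and 5 lower. The call of HSPA5 was lost without F0 replicate 1, F0 replicate 2, F2 replicate 1 or F2 replicate 3 (adjusted p = 0.0677 to 0.112). The stress transcription factor DDIT3 had 199, 205 and 147 counts in F0 and 215, 187 and 207 in F2, and the groups overlapped (log2 fold change 0.25, adjusted p = 0.190).

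Factors known to induce IL24 or to control the stability of cytokine mRNAs changed in both directions. Of 20 listed, 19 were tested, 4 rose and 3 fell (36.8% called, against 18.2% of all genes; median log2 fold change -0.011). JUN, a subunit of the AP-1 transcription factor, through which IL24 is induced, had 1773, 1791 and 1874 counts in F0 and 2958, 2882 and 3086 in F2. It rose from 107.9 ± 3.12 to 190.8 ± 5.07 CPM (log2 fold change 0.82, SE 0.048, adjusted p = 3.2e-10). The AP-1 subunit FOSL1 rose from 124.5 ± 5.58 to 160.0 ± 9.39 CPM (log2 fold change 0.36, adjusted p = 7.2e-05), whereas JUND fell from 102.3 ± 2.53 to 71.4 ± 2.36 CPM (log2 fold change -0.52, adjusted p = 6.6e-07). FOS was at 1.17 and 1.24 CPM (log2 fold change 0.081, adjusted p = 0.898), and FOSB had 6, 2 and 5 counts in F0 and 0, 3 and 1 in F2.

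ZFP36L1, whose protein binds AU-rich elements and promotes mRNA decay, rose from 410.2 ± 4.96 to 509.9 ± 6.07 CPM (log2 fold change 0.31, SE 0.041, adjusted p = 1.6e-05). Its relative ZFP36 varied widely between replicates, with 27, 70 and 100 counts in F0 and 60, 123 and 73 in F2 (log2 fold change 0.49, 95% interval -0.16 to 1.14, adjusted p = 0.311). MAPKAPK2, a kinase that counters such decay, rose by 0.14 on the log2 scale (adjusted p = 0.031), and HNRNPD, another AU-rich element binding protein, fell by 0.14 (adjusted p = 0.035). MAPKAPK2 was lost with library size alone and without F0 replicate 1, F0 replicate 2, F2 replicate 1 or F2 replicate 3 (adjusted p = 0.0675 to 0.450), and HNRNPD without F0 replicate 2, F0 replicate 3, F2 replicate 1 or F2 replicate 3 (adjusted p = 0.112 to 0.149). With library size alone, this list had 3 genes higher and 7 lower. Some genes of this list also stand in lists above, among them the gene that fell besides JUND and HNRNPD.

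The core of such elements, ATTTA, occurs 3 times in the longest annotated 3′ UTR of IL24 (1154 bases) and 8 times, overlaps included, in that of IL20 (659 bases), where the longer form TTATTTATT occurs once, overlapping ATTTA. It occurs 7 times in IL20RA, 1 time in IL19 and 0 times in IL20RB and IL22RA1. Of 2623 longest 3′ UTRs of a similar length to that of IL24 (924 to 1442 bases), 78.1% hold ATTTA, with a median of 2, and 6.1% hold TTATTTATT. The 3′ UTRs of IL20, IL19, IL20RA and IL20RB lie outside this range of lengths, so the shares are no background for these. The letters were searched on the transcribed strand, and a match is a description and not a binding site.

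**Figure D4:**
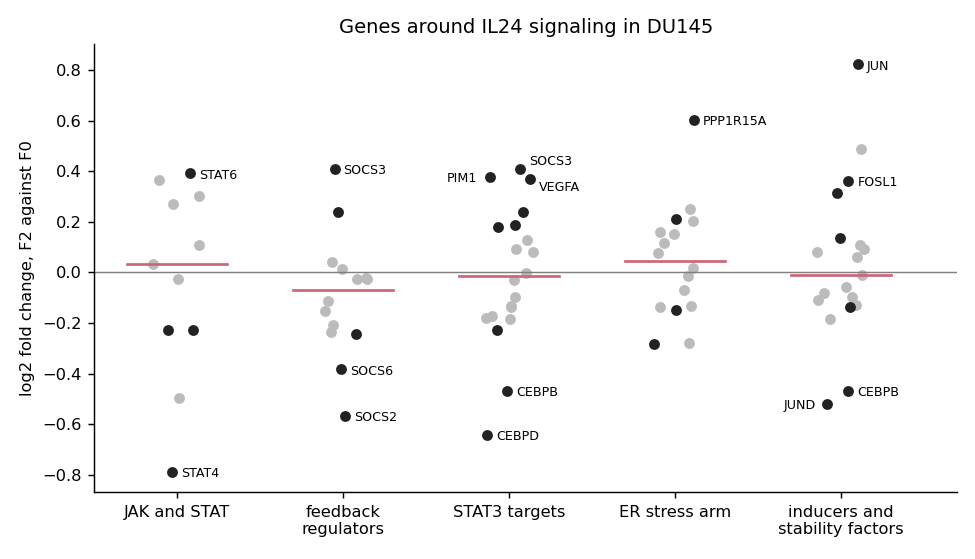
Log2 fold change of F2 against F0 for the tested genes of 5 lists around IL24 signaling in DU145; each point is a gene, black at an adjusted p under 0.05 and grey otherwise, and the red line is the median of the list. Medians lie between -0.070 and 0.047, and JUN (0.82) and STAT4 (-0.79) are the outermost genes that passed.

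Counts from genes beside IL24 were examined because its 3′ end faces that of FCMR, a gene for an Fc receptor of IgM, which lies on the minus strand and ends 246 bases beyond IL24. FCMR (ENSG00000162894, chr1:206904386-206923247) had 170, 153 and 174 counts in F0 and 274, 230 and 250 in F2. It rose from 9.85 ± 0.535 to 16.1 ± 1.30 CPM (log2 fold change 0.71, SE 0.11, adjusted p = 1.0e-04). The ratio of FCMR to IL24 counts was 1.19, 1 and 1.19 in F0 and 0.369, 0.346 and 0.350 in F2, so IL24 changed by more than its neighbor in every F2 library. The strand setting of the counting is not given in the sources used here, and whether reads of either gene were counted for the other was not tested. The annotated genes do not overlap.

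Within 500 kb on each side of IL24, a distance chosen after values were seen, 35 genes are listed and 12 besides IL24 were tested. Of these 12, 5 passed the threshold, each higher in F2, where 9.49% of all genes tested were called higher, with a median log2 fold change over the 12 of 0.21 against -0.0025 over all genes. The 5 were FCMR, MAPKAPK2, C1orf116, PFKFB2 and YOD1, the last 3 named after their values were seen. C1orf116 (chr1:207018521-207032756, minus strand) had 71 counts in each F0 library and 124, 125 and 114 in F2 (log2 fold change 0.88, SE 0.14, adjusted p = 2.1e-04). PFKFB2, an enzyme of glycolysis control, rose by 0.32 on the log2 scale (adjusted p = 0.0053). YOD1, a deubiquitinase, rose by 0.28 (adjusted p = 0.031), a call that was lost in 7 of 13 alternatives (adjusted p = 0.0709 to 0.118), and the call of MAPKAPK2 was lost in 5. IL10, IL19 and IL20, which lie between MAPKAPK2 and IL24, were at or near 0 in both populations.

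**Figure D5:**
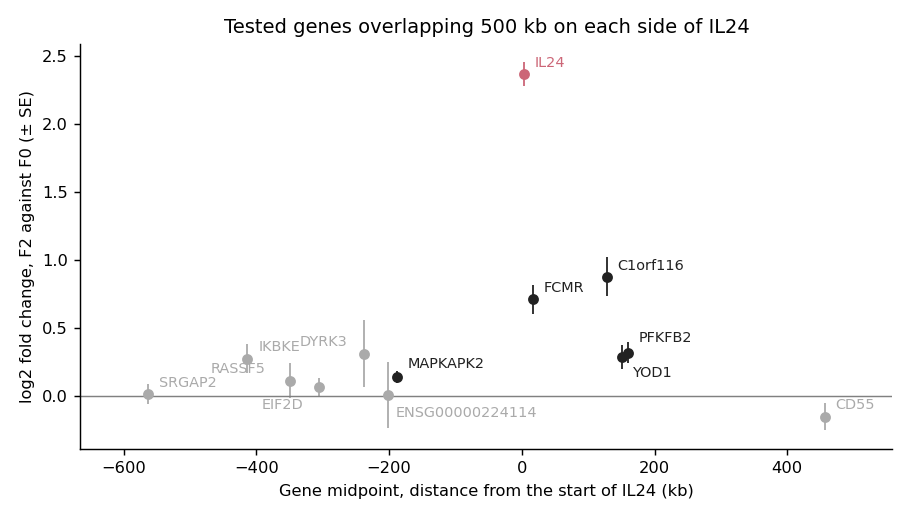
Log2 fold change of F2 against F0 (± standard error) of the genes tested that overlap the 500 kb on each side of IL24 in DU145, by the distance of the gene's midpoint from the start of IL24 in kb; IL24 is red, genes at an adjusted p under 0.05 are black, the others grey. IL24 stands at 2.37, C1orf116 at 0.88 and FCMR at 0.71, and the others lie between -0.15 and 0.32.

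The nearest protein-coding genes that do not overlap a receptor chain had few or no counts, apart from IFNLR1 and SLC35G2. IL22RA1 lies on chromosome 1 between MYOM3, a muscle gene with 0, 0 and 2 counts in F0 and 1, 0 and 0 in F2, and IFNLR1, whose nearer end is 11035 bases further on. IL20RA lies on chromosome 6 between SLC35D3, with 1 count in all, and IL22RA2, 98639 bases further on, with none. In both places a chain of the IL24 receptors therefore has another receptor gene of the IL-10 family as its neighbor. The levels of these neighbors differed, at 2.82 CPM for IFNLR1 and 0 for IL22RA2 in F0. Next to IL20RB, SLC35G2 had 76, 128 and 131 counts in F0 and 117, 176 and 145 in F2. Its groups overlapped (log2 fold change 0.49, edgeR adjusted p = 0.072). SOX14, on the other side of IL20RB, had 0 counts.

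The genes whose pattern over the 6 libraries was most like that of IL24 were sought by the root mean square difference of log2 CPM from the F0 mean, among 10155 genes with a mean of at least 5 CPM over the libraries. They were MMP1, LOX, MTATP6P1, KRTAP2-3 and EVA1A, with differences of 0.123, 0.181, 0.399, 0.446 and 0.479 on the log2 scale and Pearson correlations with IL24 of 0.996, 0.989, 0.998, 0.989 and 0.925. MMP1, an interstitial collagenase, was at 3.77 and 21.0 CPM in F0 and F2, and LOX, a collagen cross-linking enzyme, at 1.65 and 8.42 CPM. MTATP6P1 is by its name a pseudogene of a mitochondrial gene, and whether its counts came from mitochondrial RNA was not tested. The points are 6 libraries of 2 populations, so that any gene with a step between F0 and F2 correlates with IL24, and 82 genes had a correlation of at least 0.99. The values are a description, without a test.

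Gene counts per library were 15879480 to 16479239. Libraries of the populations differed in the share of counts from mitochondrially encoded genes, 5.71 to 6.0% in F0 and 10.2 to 10.6% in F2, and the log2 fold change of IL24 was 2.37 with these genes left out. The epithelial genes KRT8 (278 and 327 CPM), KRT18 (484 and 556 CPM), EPCAM (30.1 and 35 CPM) and CDH1 (14.0 and 5.77 CPM) were present, while PTPRC had 0 counts and KLK3 had 1. KRT5, which had been listed as present, had 0 counts. Of 22 MSC marker genes, 13 had at most 3 counts in every library, and 7, among them THY1, LUM and POSTN, had 0. The sum over the 22 was 214 to 238 CPM in F0 and 277 to 296 CPM in F2, mostly NT5E (158 and 221 CPM), and over the 19 under 10 CPM in F0 it was 16.3 to 18.8 CPM in F0 and 16.0 to 16.5 CPM in F2. Of 7 immune markers, PTPRC, CD3E and NKG7 were at 0, and the sum, mostly CD68, was 5.69 to 5.96 CPM in F0 and 7.20 to 9.79 CPM in F2. The part of these differences in the values of IL24 and its receptors was not tested.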

How the data were processed

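RNA QuantSeq counts of 3 F0 and 3 F2 samples of DU145 were analyzed. Alignment and counting were done by the authors on the Bluebee platform of the kit's vendor, and the deposited values are raw counts of each gene, without normalization. The submitters' processing notes name STAR 2.5.2a, HTSeq 0.6.0 and GRCh38, and the strand setting is not given in the sources used here. Lines that name no gene held 9.60 to 11.9% of uniquely placed reads (reads outside genes) and were left out of library sizes. Gene counts per library were 15879480 to 16479239. Floors and Poisson intervals cover counting error only, since reads carry no molecular identifiers.

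From the counts, genes with few counts were removed by filterByExpr (its minimum count 10 and total 15). Libraries were scaled by TMM, and F2 was tested against F0 by quasi-likelihood F-tests (edgeR 4.0.16, R 4.3.3), two-sided, with Benjamini-Hochberg adjustment over all 14316 genes and a threshold of 0.05. The method was tested on simulated data. DESeq2 1.42.0 served as an alternative. The smallest p that exact permutation of 3 against 3 samples allows is 0.1. Of 60107 identifiers, 56104 matched a symbol and 56531 GENCODE release 29, from which positions and sequences were read.

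The members and gene lists were chosen with earlier results of these data known. Named were the 6 members, the other IL-10 family, JAK and STAT genes with a count, up to 4 genes past the threshold with the largest change in each other list and genes whose role the text explains, the markers, genes overlapping or next to a member, and the 5 genes most like IL24. Some genes of the lists are not reported here. No pair of replicates was similar enough to be 1 library deposited again. The table of PAIII, a rat line, was not used, because its identifiers could not be matched to symbols here, so the planned test of orthologs was not run.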

Additional observations from a re-analysis of the deposited data

How the results depend on the processing

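The log2 fold change of IL24 was 2.34 to 2.41 when single libraries were left out and 2.28 with library size alone in place of TMM, a scaling that lowers the median over all genes by 0.090 and gives 832 genes higher and 2805 lower. With single libraries left out, IL20RB was at -1.08 to -0.67 and IL22RA1 at -0.67 to -0.13. IL22RA1 gave no value with at least 10 counts in every library. All genes past the threshold numbered 1671 (without F0 replicate 2) to 2621 in the fits that left out a library, and 1911 with DESeq2, against 2599. Feedback regulators called numbered 2 to 5 and other cytokine ligands 2 (without F2 replicate 3) to 5 in these fits. By Pearson correlation in place of the root mean square difference, 0 of the 5 genes most like IL24 were shared.

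The replicate numbers did not pair the samples (correlations of same-numbered deviations 0.010, -0.010 and 0.029). With the replicate block, 2867 genes passed, the log2 fold changes of IL24, IL20RB and IL22RA1 were 2.37, -0.90 and -0.41, and the lists had 4 JAK and STAT, 6 feedback, 9 STAT3 target, 5 ER stress, 7 inducer and 5 ligand calls. Of the settings run on single genes, 1199 kept the side of the threshold, 50 lost a call, 33 gained one and 0 reversed. The test of PAIII orthologs was not run. In a single library, levels under about 0.2 CPM lay under the floor of 3 counts and were not read as expression. Summed over the F2 libraries, the Poisson interval of IL20RA was 0.0471 to 0.279 CPM, above 0 for counting error only.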
